A study of Homo sapiens with 2 samples.

Results

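Aldo-keto reductases of the AKR1 branch and the quinone reductase NQO1 were followed in the human glioblastoma cell line U251, grown in high-glucose DMEM. The genes were chosen by name, as AKR1A1, AKR1B1, AKR1B10, AKR1C1, AKR1C2, AKR1C3 and NQO1, and each was sought among the probe sets that the platform annotation gives a single symbol. Of these 7 genes, 5 had such a probe set, out of 18417 genes named in this way, with 6 probe sets among the 33297 on the array. AKR1A1 and AKR1B1 were named by no probe set, alone or with other symbols, and have no value here. One culture had received 5 µM G-TPP for 6 h and the other had received DMSO, the solvent control. In G-TPP, one of the Gamitrinibs, an Hsp90 inhibitor of the geldanamycin type is carried into mitochondria by triphenylphosphonium. The comparison asks how transcripts differ between this compound and its solvent. No array had the carrier alone or the inhibitor without it. Effects of the carrier, of the quinone and of Hsp90 inhibition therefore cannot be told apart. Each condition has 1 array of 1 culture of a single line, so no difference has a replicate check, and no p-value or standard error is given. "Higher" and "lower" describe these 2 arrays.

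Aldo-keto reductases are NADPH-dependent enzymes that turn aldehydes and ketones into alcohols. NQO1 reduces quinones directly to hydroquinones, and geldanamycin-type benzoquinones are among its known substrates. Genes of both families are known targets of NRF2, a transcription factor that is held in check by KEAP1 and released by electrophiles and oxidants. With small MAF partners, NRF2 binds antioxidant response elements in DNA.

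AKR1C1, AKR1C2 and AKR1C3 are neighbouring copies on chromosome 10, and their start-site regions are shown because these genes were all higher with G-TPP. The windows are mostly DNA before the start and say nothing about which array probes the copies share. The stretches run from 250 bases before to 50 bases after the annotated start, 5′ to 3′ on the gene's strand, as RefSeq gives them on GRCh38.p14, where 6 of the 7 genes matched, all but AKR1B10. AKR1C1 lies on the plus strand at chr10:4963165-4963464, AKR1C2 on the minus strand at chr10:5003808-5004107, and AKR1C3 on the plus strand at chr10:5048531-5048830. NQO1, on the minus strand at chr16:69726511-69726810, is shown for contrast, as the member outside the reductase family. Capitals mark a CCAAT box (CCAAT, here on the opposite strand as ATTGG) or a xenobiotic response element core (GCGTG, here on the opposite strand as CACGC).
AKR1C1: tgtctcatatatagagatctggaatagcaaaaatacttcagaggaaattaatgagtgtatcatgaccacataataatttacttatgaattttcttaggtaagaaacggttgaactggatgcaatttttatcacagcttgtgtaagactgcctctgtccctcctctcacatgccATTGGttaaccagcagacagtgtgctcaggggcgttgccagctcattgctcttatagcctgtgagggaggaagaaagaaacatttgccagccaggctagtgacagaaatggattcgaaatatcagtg
AKR1C2: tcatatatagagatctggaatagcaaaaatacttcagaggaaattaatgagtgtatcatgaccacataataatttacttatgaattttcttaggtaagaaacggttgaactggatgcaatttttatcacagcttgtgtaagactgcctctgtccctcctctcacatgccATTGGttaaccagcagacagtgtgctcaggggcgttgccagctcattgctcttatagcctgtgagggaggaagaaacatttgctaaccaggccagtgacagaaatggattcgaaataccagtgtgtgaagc
AKR1C3: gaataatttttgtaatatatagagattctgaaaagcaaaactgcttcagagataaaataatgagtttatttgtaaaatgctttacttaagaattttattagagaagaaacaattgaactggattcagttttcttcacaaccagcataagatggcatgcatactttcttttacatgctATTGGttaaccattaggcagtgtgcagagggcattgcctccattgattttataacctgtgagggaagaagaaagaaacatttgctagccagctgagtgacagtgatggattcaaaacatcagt
NQO1: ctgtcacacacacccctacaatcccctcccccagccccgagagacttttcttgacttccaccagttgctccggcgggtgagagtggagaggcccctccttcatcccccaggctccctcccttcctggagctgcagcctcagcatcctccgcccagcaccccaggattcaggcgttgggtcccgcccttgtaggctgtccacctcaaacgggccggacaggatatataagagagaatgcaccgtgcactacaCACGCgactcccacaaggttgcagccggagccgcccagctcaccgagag
In a global alignment with free ends, 288 of the 292 aligned bases were identical between AKR1C1 and AKR1C2 (98.6%), gaps left out. AKR1C3 shared 227 of 291 aligned bases with AKR1C1 (78.0%) and 220 of 283 with AKR1C2 (77.7%). The base composition differed as well, with 41% G and C in AKR1C1, 41.3% in AKR1C2, 33.7% in AKR1C3 and 62.7% in NQO1. AKR1C3 has another annotated start at chr10:5094164-5094463, which is not printed. The printed AKR1C3 window is the one of lower coordinate, and which start these cells use was not tested. The unprinted window shared 79.5% of aligned bases with AKR1C1 and 80.6% with AKR1C2.

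The inverted CCAAT box stood at -77 to -73 from the start in AKR1C1, at -81 to -77 in AKR1C2 and at -73 to -69 in AKR1C3. NQO1 had none in this window. CCAAT is short and was found on either strand in 34.6% of the 35116 start-site windows of this length in the RefSeq table. NQO1 held GCGTG once, at 2 to 6, and 36.5% of all windows hold it. The antioxidant response element core TGACNNNGC, searched on both strands, was in none of the 4 printed windows and in 13.3% of all windows. TGANTCA, the AP-1 site (7.71% of all windows), and the CHOP-ATF composite site TGATGNAAT (0.991%) were also without a match in these 4. TATAAA had 1 match, on the opposite strand of AKR1C3, and was in 11.5% of all windows. The unprinted AKR1C3 window had an inverted CCAAT box at -86 to -82 and no TATAAA match. Matches are letters in a 300-base window, not measured sites, and the windows leave out everything farther upstream.

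The 5 measured members were all higher in the G-TPP array, but by very different ratios. AKR1B10 and the AKR1C genes differed by about 2-fold or more, except by the second AKR1C1 probe set, while NQO1 differed little as a ratio. Among the 5 measured genes, each taken at its probe set of highest mean intensity, 3 were at least 2-fold higher (AKR1B10, AKR1C1 and AKR1C3) and none was lower. Over the 11091 genes that passed a brightness filter, the share at 2-fold or more was 2.8% on the higher side and 0.55% on the lower side. The filter was an intensity of 239.2 in the brighter of both arrays, and AKR1B10 passed it through its G-TPP value alone. Across these genes log2 differences centred on a median of -0.04, and their standard deviation was 0.43. Of these genes 44.0% were above 0. In bulk RNA, more cells with a transcript and more transcript per cell cannot be told apart.

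**Figure D1:**
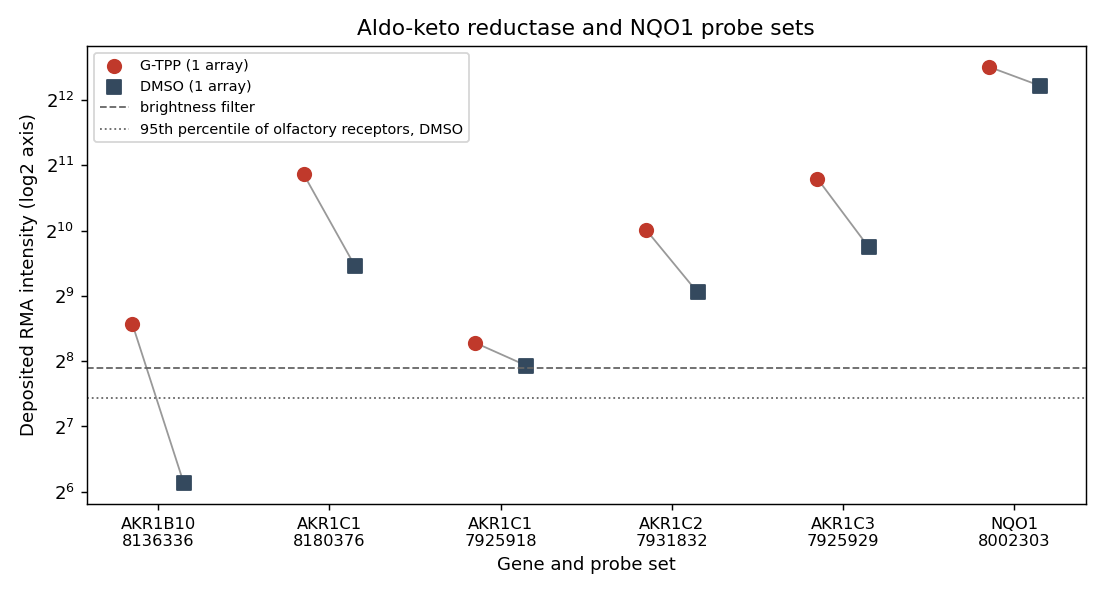
Deposited RMA intensity (log2 axis) of each member probe set in the G-TPP array (circles) and the DMSO array (squares), with 1 array per condition. The dashed line is the brightness filter at 239.2 and the dotted line the 95th percentile of olfactory receptor genes in the DMSO array, 172.6. All 6 probe sets are higher with G-TPP, with the DMSO value of AKR1B10 below the dotted line and the NQO1 points close together.

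AKR1B10, a reductase of retinaldehyde and other aldehydes that is best known from the intestine, was below the level of clear detection with DMSO and above it with G-TPP. Its probe set 8136336 had an intensity of 379.3 in the G-TPP array and 70.1 in the DMSO array. The measured log2 difference was 2.44. The DMSO value lay under 172.6, the 95th percentile of olfactory receptor genes, a family of the nasal epithelium taken here as a mark of little or no expression. Set against that floor, AKR1B10 was at least 2.20-fold higher, a log2 difference of at least 1.14, and a size beyond this bound cannot be read from the arrays. Its order relative to the AKR1C genes is therefore not settled. The G-TPP value stood clear of the corresponding floor of 173.6.

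AKR1C1, which inactivates progesterone, has 2 probe sets that gave unlike answers. Probe set 8180376, annotated with a RefSeq transcript of the gene, had an intensity of 1863 with G-TPP and 702.3 with DMSO, 2.65-fold higher. Its log2 difference was 1.41, exceeded by 134 genes. Probe set 7925918, annotated with a single GenBank mRNA, had 311.7 with G-TPP and 244.4 with DMSO, 1.28-fold higher, which is a log2 difference of 0.35. Both values of this second probe set lie close to the brightness filter, and whether that bears on its smaller ratio was not tested. The mean of both probe sets was a log2 difference of 0.88, short of 2-fold. Which transcript bases each probe set covers was not used here.

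AKR1C2, which inactivates dihydrotestosterone, came just under 2-fold. Probe set 7931832 had an intensity of 1031 with G-TPP and 531.2 with DMSO, 1.94-fold higher. The log2 difference of 0.96 was exceeded by 329 genes, 2.97% of those above the filter.

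AKR1C3, which forms testosterone from androstenedione and also makes prostaglandin F, came just over 2-fold. Probe set 7925929 had an intensity of 1778 with G-TPP and 857.2 with DMSO, 2.07-fold higher. The log2 difference of 1.05 was exceeded by 277 genes, 2.50% of those above the filter. AKR1C2 and AKR1C3 thus lie on either side of the threshold with log2 differences 0.10 apart, while 341 olfactory receptor genes had a standard deviation of 0.19 in their log2 differences between these arrays. That scale comes from dim genes and leaves out differences between cultures. Near-identical AKR1C copies can share hybridising RNA, and how far the 3 genes are independent readings was not tested.

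NQO1 had a high signal in both arrays and a small ratio between them. Probe set 8002303 had an intensity of 5839 with G-TPP and 4771 with DMSO, 1.22-fold higher. The log2 difference of 0.29 was exceeded by 1996 genes, 18% of those above the filter. In linear intensity, however, NQO1 was higher by 1069, which is not small among the members. AKR1C1 was higher by 1161 and 67.3 in its 2 probe sets, AKR1C3 by 920.4, AKR1C2 by 500.1 and AKR1B10 by 309.3. Whether the high signal of NQO1 bears on its smaller ratio was not tested.

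**Figure D2:**
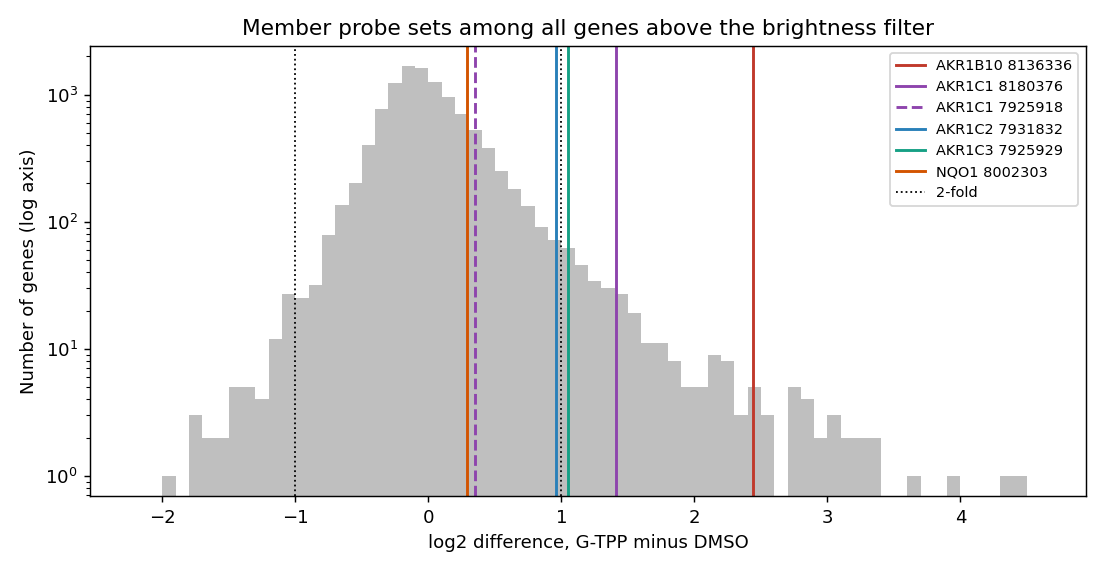
Histogram of log2 differences, G-TPP minus DMSO, for the 11091 genes above the brightness filter (count on a log axis), with a vertical line for each member probe set and dotted lines at 2-fold. The AKR1B10 line is the measured difference, 2.44, of which the floor supports at least 1.14. The AKR1C genes lie between 0.96 and 1.41, near or past the 2-fold line, and NQO1 at 0.29 and the second AKR1C1 probe set at 0.35 beside the bulk.

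Of the measured genes in the AKR1C cluster, AKR1C1, AKR1C2 and AKR1C3 were the 3 with signal above the filter. In the order of the RefSeq table, AKR1E2 and the pseudogene AKR1C6P precede AKR1C1, and AKR1C8 and AKR1C4 follow AKR1C3. AKR1C4, the liver form of the family, had an intensity of 43.8 with G-TPP and 38.0 with DMSO. AKR1C8 had 111.7 with G-TPP and 124.7 with DMSO, and AKR1C6P had 71.3 with G-TPP and 73.2 with DMSO. AKR1E2 had 133.6 with G-TPP and 128.4 with DMSO. These 4 lay under the olfactory receptor floor in both arrays, so no fold is given for them. KLF6, a transcription factor gene farther out on the AKR1E2 side, had 605.7 with G-TPP and 427.1 with DMSO, a log2 difference of 0.50.

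The AKR1B cluster on chromosome 7 holds AKR1B1, the aldose reductase that makes sorbitol, then AKR1B10 and AKR1B15, of which AKR1B10 alone was named by a probe set. Whether the AKR1B10 probe set also reads RNA of the other cluster genes was not tested. The nearest measured neighbours of AKR1B10 differed less. SLC35B4, a nucleotide sugar transporter gene, had an intensity of 966.4 with G-TPP and 1206 with DMSO, a log2 difference of -0.32. BPGM, which encodes bisphosphoglycerate mutase, had 941.5 with G-TPP and 877.3 with DMSO, a log2 difference of 0.10. Beside NQO1 on chromosome 16, NOB1, a ribosome assembly gene, had 1574 with G-TPP and 1807 with DMSO, a log2 difference of -0.20. On the other side NFAT5, the transcription factor of the osmotic stress response, had 1072 with G-TPP and 676.5 with DMSO, a log2 difference of 0.66 that was above that of NQO1 itself. These neighbours were picked by position.

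**Figure D3:**
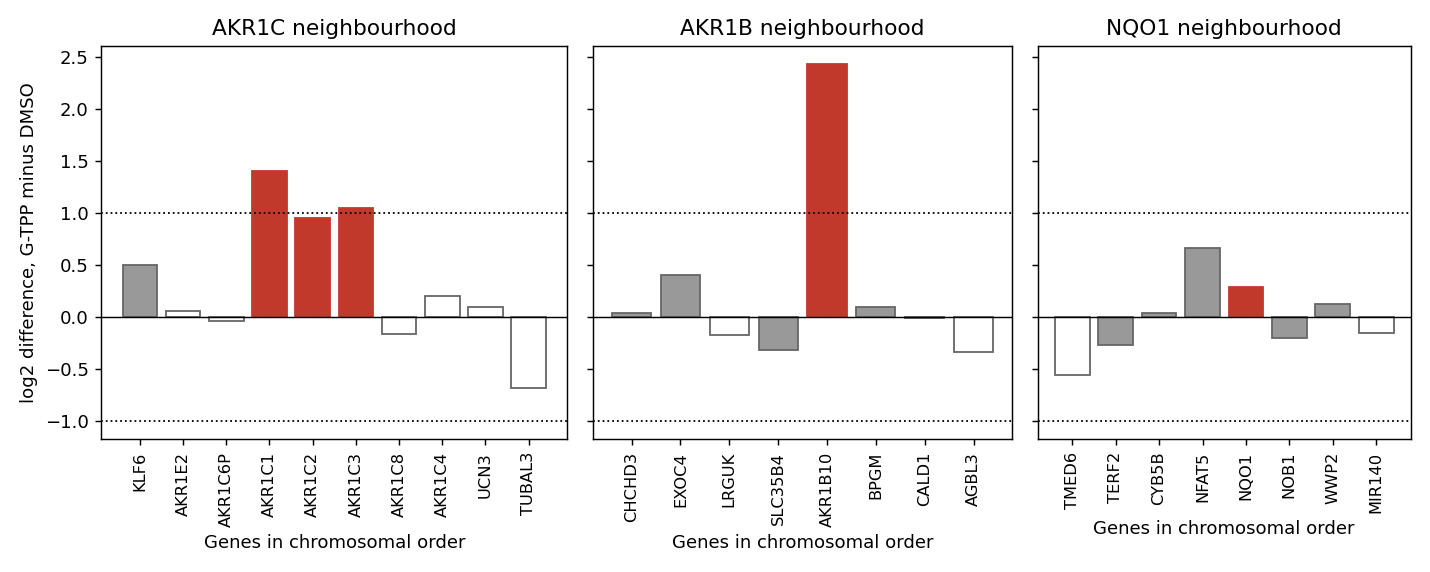
Log2 difference, G-TPP minus DMSO, of the members (red) and of measured neighbouring genes (grey) in chromosomal order at 3 loci, with dotted lines at 2-fold. Open bars are genes under the brightness filter in both arrays. Each gene is drawn by its probe set of highest mean intensity, so the second AKR1C1 probe set, at 0.35, is not shown. AKR1C1, AKR1C2 and AKR1C3 reach 0.96 to 1.41, and AKR1B10 is drawn at its measured 2.44, of which the floor supports at least 1.14. No neighbour plotted reaches 2-fold in either direction.

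The rest of the aldo-keto reductase superfamily was dim or differed little. Of 11 further genes of the superfamily, 9 had a probe set and 3 passed the filter, their median log2 difference being -0.16 and none at 2-fold. AKR7A2, which handles succinic semialdehyde, had an intensity of 1169 with G-TPP and 1304 with DMSO. Its relative AKR7A3, known from aflatoxin aldehyde reduction, had 201.5 with G-TPP and 242.8 with DMSO, a log2 difference of -0.27. KCNAB2, a potassium channel beta subunit with the aldo-keto reductase fold, had 306.1 with G-TPP and 302.1 with DMSO.

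Enzymes with neighbouring chemistry pointed both ways. Of 17 other carbonyl and quinone reductases, 14 passed the filter, of which 7 were above 0 and 7 below in log2 difference, with a median of 0.01 and none at 2-fold. NQO2, the paralog of NQO1, had 894.0 with G-TPP and 604.1 with DMSO, a log2 difference of 0.57. AIFM2, which reduces coenzyme Q at membranes and is also called FSP1, had 449.9 with G-TPP and 320.0 with DMSO, 0.49 on the log2 scale. DHRS7, a short-chain dehydrogenase, had a log2 difference of 0.44, the carbonyl reductase CBR1 had -0.13, and VKORC1L1, a vitamin K epoxide reductase paralog, had -0.32. For VKORC1L1 the other probe set gave 0.17, but it lay under the olfactory receptor floor in both arrays (135.3 with G-TPP and 120.4 with DMSO).

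Genes for the oxidation of aldehydes and the removal of methylglyoxal were spread around 0. Of 17 listed, 12 passed the filter, 5 above 0 and 7 below, with a median log2 difference of -0.09. The mitochondrial aldehyde dehydrogenase gene ALDH1B1 was the 1 member of this list at 2-fold, and it was lower, at 995.5 with G-TPP and 2095 with DMSO (2.10-fold lower). ALDH3A1, another known NRF2-responsive detoxification enzyme, had 531.1 with G-TPP and 681.8 with DMSO, a log2 difference of -0.36. ALDH6A1 and ALDH9A1 had log2 differences of 0.41 and 0.35.

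Other NRF2 target genes were mostly higher with G-TPP, over a graded range of sizes. Of 32 listed, 27 passed the filter, 24 of them above 0, and 8 reached 2-fold, all of them higher with G-TPP. Over all genes above the filter, 44.0% were above 0 and 2.8% were at least 2-fold higher. The list's median log2 difference was 0.17, under the standard deviation of 0.19 of olfactory receptor genes between these arrays. Many of the differences above 0 were thus small. The 3 genes below 0 were ABCC3 (-0.34), TKT (-0.13) and ABCB6 (-0.12). HMOX1, the inducible haem oxygenase, had the highest difference at 3.39 on the log2 scale, followed by the cystine transporter gene SLC7A11 (2.22) and TRIM16 (1.84). Sulfiredoxin SRXN1, at 2443 with G-TPP and 923.0 with DMSO, was 2.65-fold higher, and thioredoxin reductase TXNRD1, at 3864 with G-TPP and 1736 with DMSO, was 2.23-fold higher. GCLM, the modifier subunit of glutathione synthesis, was 2.17-fold higher, at 1968 with G-TPP and 908.2 with DMSO. Between these and the list's median lay FTL, the ferritin light chain gene, at a log2 difference of 0.92, the prostaglandin reductase gene PTGR1 at 0.61, the biliverdin reductase gene BLVRB at 0.50 and the haem transporter gene SLC48A1 at 0.30. NQO1, with its log2 difference of 0.29, lay above the list's median and beside SLC48A1. The pentose phosphate enzyme gene PGD at 0.10 and the microsomal glutathione transferase MGST1 at 0.04 lay below that median. FTL, PTGR1, BLVRB, SLC48A1, PGD and MGST1 were chosen after their values were seen.

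**Figure D4:**
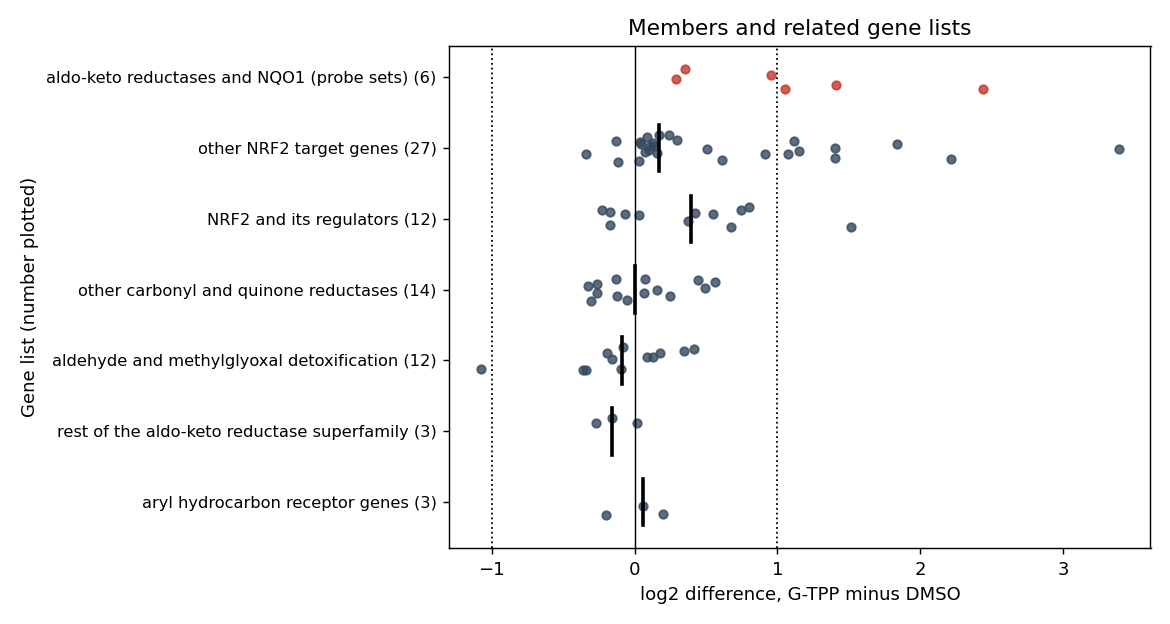
Log2 difference, G-TPP minus DMSO, of the 6 member probe sets (red) and of the genes above the brightness filter in 6 related lists (dark), with the median of each list as a black bar and dotted lines at 2-fold. Several NRF2 targets lie right of 2-fold with AKR1B10, AKR1C3 and the brighter AKR1C1 probe set. The second AKR1C1 probe set lies at 0.35. AKR1B10 is drawn at its measured 2.44, of which the floor supports at least 1.14. The remaining reductase and aldehyde lists centre near 0.

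For the NRF2 machinery 12 of 14 listed genes passed the filter, 8 above 0 and 4 below, and their median log2 difference was 0.40. NFE2L2, which encodes NRF2, had 3806 with G-TPP and 2180 with DMSO, 1.75-fold higher. KEAP1, its cytoplasmic anchor, had 859.6 with G-TPP and 842.3 with DMSO, a log2 difference of 0.03. MAFG, a small MAF partner, was the 1 gene of this list at 2-fold, with 2150 in the G-TPP array and 750.9 in the DMSO array (2.86-fold higher). Its other probe sets gave log2 differences of 1.29 and 0.71. BACH1, a repressor at NRF2 sites, had a log2 difference of 0.75, NFE2L1, the relative that controls proteasome genes, 0.68, and the KEAP1-binding autophagy receptor SQSTM1 0.55. MAFF and GSK3B had 0.42 and 0.37. The ubiquitin ligase components CUL3, RBX1 and BTRC had log2 differences of -0.18, -0.17 and -0.23, and the KEAP1-binding peptidase DPP3 had -0.07.

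NQO1 is also a known target of the aryl hydrocarbon receptor, and of that list of 9 genes 7 had a probe set and 3 passed the filter, none at 2-fold. AHR itself had an intensity of 47.4 with G-TPP and 56.1 with DMSO, CYP1A1 had 76.9 with G-TPP and 83.5 with DMSO, and CYP1B1 had 90.7 with G-TPP and 93.5 with DMSO. These 3 lay under the floor in both arrays. The receptor's target TIPARP had 1047 with G-TPP and 910.4 with DMSO, a log2 difference of 0.20. Its partner ARNT had 1082 with G-TPP and 1241 with DMSO (-0.20), and the related ARNT2 had 425.8 with G-TPP and 409.5 with DMSO (0.06).

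The genes most like AKR1B10 were sought by the distance between log2 intensities over the 2 arrays, a measure that rests on 2 points per gene. F2RL2, a thrombin receptor family gene, had 344.7 with G-TPP and 67.8 with DMSO, the endocytic adaptor gene DAB2 had 379.8 with G-TPP and 77.7 with DMSO, and AGR2, an ER disulfide isomerase relative, had 309.0 with G-TPP and 71.2 with DMSO. All 3 were under the floor with DMSO, as AKR1B10 was, so their order by size of difference carries no information. For AKR1C1 the same search, added after the values were seen, gave PLEKHG1 (1832 with G-TPP and 752.3 with DMSO), JAG1 (1711 with G-TPP and 722.0 with DMSO) and EPC2 (1684 with G-TPP and 708.4 with DMSO).

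The culture's identity and the array scale were checked on genes outside the family. Of 14 astroglial and glioma markers 10 passed the filter, with VIM, CD44, SOX2 and NES well above it, GFAP near it (231.5 with G-TPP and 245.2 with DMSO), and S100B, AQP4 and ALDH1L1 under the floor in both arrays. The listed intensities of that list summed to 20188 with G-TPP and 25377 with DMSO, and its median log2 difference was -0.11. The list was not uniform, since the growth factor receptor gene PDGFRA and the neural stem cell factor SOX2 were at least 2-fold lower with G-TPP, by log2 differences of -1.70 and -1.44. SOX9 was at -0.98 and the glutamate transporter gene SLC1A3 at 0.64, and the part of these markers in the members' differences was not tested. Markers of immune cells summed to 1054 with G-TPP and 1238 with DMSO over 5 genes, with 2 above the filter, CD68 at 515.5 with G-TPP and 583.7 with DMSO and TYROBP at 220.4 with G-TPP and 305.7 with DMSO, while PTPRC, the pan-leukocyte marker, was at 32.9 with G-TPP and 34.8 with DMSO. Endothelial markers summed to 991.4 with G-TPP and 1041 with DMSO (CDH5 and CLDN5 of 5 above the filter), and neuronal markers to 731.4 with G-TPP and 761.7 with DMSO (RBFOX3 of 4). Epithelial markers summed to 2614 with G-TPP and 3032 with DMSO, most of it from the keratin gene KRT8 at 1809 with G-TPP and 2167 with DMSO. KRT18 and KRT19 also passed the filter, and EPCAM and CDH1 were under the floor. Liver and blood markers summed to 752.6 with G-TPP and 813.2 with DMSO (APOA1 of 5 above the filter), with ALB under the floor. ACTB and GAPDH, taken as controls, differed by -0.11 and -0.06 on the log2 scale.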

How the data were processed

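The deposited table holds, for each array, 1 linear intensity per probe set, between 6.61 and 18995. The authors made these intensities with RMA in Affymetrix Expression Console 1.1.2, per the submitters' processing notes. RMA corrects background, equalises the distributions of arrays and summarises probes, so a change in total RNA per cell is not visible. Not given in the sources used here is which arrays entered the run or how the values became linear. The median intensity was 215.5 in the G-TPP array and 224.8 in the DMSO array. For arrays, their number limits the precision, here 1 per group.

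Of 33297 probe sets, the platform annotation gives 1 symbol to 19460 and several to 1754, and it does not list 12083. Symbols were updated through gene IDs with RefSeq for GRCh38.p14. A gene with several probe sets (18417 genes in all) took the one of highest mean intensity, and the members are also given by every probe set. Log2 intensities were taken with no pseudocount, and G-TPP minus DMSO was computed. A gene was kept if its brighter array reached the median over probe sets, 7.90 on the log2 scale. With 1 array per group there is no test, and genes were counted at 2-fold. Where the DMSO value of a member lay under the 95th percentile of olfactory receptor genes, the fold was taken against that percentile as a lower bound.

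The members, gene lists and rules were chosen with earlier results of these data known. Named were all members, up to 4 genes per list with the largest difference above the filter, all genes above the filter among NRF2 and its regulators, a fixed set of NRF2, reductase and control genes, and the 3 genes most like the member with the largest difference. Neighbouring genes, the other AKR1C genes, the receptor genes under the floor and further list and marker genes were added for position or role. The procedure was run on simulated data with planted differences well beyond the 2-fold threshold, so that run says nothing about values near it. Alternatives were thresholds of 1.5-fold and 3-fold, no filter, a filter at the 75th percentile, median and lowess centring (span 0.3), quantile normalization, log2 of the intensity plus 16, other choices among probe sets and, added after the data were seen, the olfactory receptor floor and counting probe sets. Python 3.11.15, numpy 2.4.6, pandas 2.3.3, statsmodels 0.14.6, Biopython 1.88 and matplotlib 3.10.9 were used.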

Additional observations from a re-analysis of the deposited data

How the results depend on the processing

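The 5 member genes stayed above 0 under all alternatives run that gave them a value. Of 44 such values 40 moved by less than 0.19 on the log2 scale, the standard deviation of olfactory receptor genes. That scale comes from dim genes on these 2 arrays and is not a replicate spread. Many of the 44 values could not move, so the share is no measure of stability. A change of filter leaves a kept gene's value as it was. The choice among probe sets alters AKR1C1 alone, and the floor alters AKR1B10 alone. AKR1B10 came to 2.20 with log2 of the intensity plus 16 and to 1.14 against the olfactory receptor floor, since its DMSO value is dim; it was not kept at the 75th percentile filter. AKR1C1 came to 0.88 as the mean over its probe sets and to 0.35 by the probe set of lowest mean intensity, under 2-fold both times. AKR1C2 reached 2-fold under median centring, at 1.01, and ranged from 0.94 to 1.01. AKR1C3 ranged from 1.02 to 1.11 and NQO1 from 0.29 to 0.35. The count of members at 2-fold was 3, ran from 2 to 4 under the other settings, and was 1 at a 3-fold threshold, where AKR1B10 passes by its measured values but not against the floor. At that threshold 0.938% of all genes were called in either direction, against 10.6% at 1.5-fold, 2.09% at 2-fold with no filter and 5.06% at 2-fold with the 75th percentile filter. Of 98 alternative list medians 97 moved by less than 0.19, and the astroglial marker median was -0.50 at the 75th percentile filter, where fewer genes were left. Leaving out a replicate was not possible, and no paired analysis was possible because each group has 1 array.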
